A study of Mus musculus with 22 samples.

Results

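The 41 genes described here are cell cycle and DNA replication genes. They are 22 mitotic genes, 16 genes of DNA replication and S phase entry, and the 3 D-type cyclins. The list was made by gene name, with earlier results of these data known. Each symbol had 1 row among the 57010 rows of the deposited table, and all 41 were among the 16756 genes tested. Poly(A) RNA was sequenced from isolated pancreatic islets of 22 male mice at 5.5 weeks of age, each library from the islets of 1 mouse. The 4 groups were wild type mice (WT, n = 5) and mice with 1 mutant allele, S64F MAFA (Het, heterozygous, n = 6) on a background labelled C57, and WT (n = 5) and Het (n = 6) mice on a background labelled Mixed. MAFA is a transcription factor of beta cells. Which strains make up the Mixed background is not said in the labels, which name no treatment. Values are TPM, a length-scaled share of each library with a fixed total of 1000000. Differences are on the log2(TPM + 1) scale, which understates the change of low genes, and a gene is called where limma's adjusted p over all genes tested is under 0.05.

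The cell cycle is driven by waves of gene expression. D-type cyclins bind CDK4 and CDK6 and start the inactivation of the RB pocket proteins, which releases E2F factors to switch on genes of DNA replication. The MCM2-7 complex, loaded on origins by ORC, CDC6 and CDT1, is the helicase core that unwinds DNA in S phase. A later wave, driven by the MMB complex with FOXM1, supplies the cyclins, kinases and kinetochore proteins of mitosis. In islets, Ccnd2 is the D-type cyclin best known for postnatal beta cell growth, and dividing beta cells become rare in adult mice.

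Promoters of the MCM genes that differed between genotypes on the Mixed background with no overlap between WT and Het mice, and of Cenpa, the mitotic gene with the lowest adjusted p there, are given so that their motifs can be read. Each is the 250 bases before the RefSeq start (GRCm38.p6 coordinates, 5′ to 3′ on the gene's strand), in lower case with motif matches in capitals. The motifs searched on both strands were E2F (TTGGCGC or TTCCCGC or TTCGCGC or TTGCCGC, overlapping matches counted each), the cell cycle homology region, CHR (TTTGAA), and the CCAAT box (CCAAT).
Mcm6, chr1:128359706-128359955, minus strand: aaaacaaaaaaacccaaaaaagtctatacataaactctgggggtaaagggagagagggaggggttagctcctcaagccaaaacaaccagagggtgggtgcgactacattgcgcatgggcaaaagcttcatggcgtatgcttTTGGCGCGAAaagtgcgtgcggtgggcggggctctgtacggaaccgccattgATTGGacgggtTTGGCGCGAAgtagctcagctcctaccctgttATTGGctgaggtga
Mcm7, chr5:138171884-138172133, minus strand: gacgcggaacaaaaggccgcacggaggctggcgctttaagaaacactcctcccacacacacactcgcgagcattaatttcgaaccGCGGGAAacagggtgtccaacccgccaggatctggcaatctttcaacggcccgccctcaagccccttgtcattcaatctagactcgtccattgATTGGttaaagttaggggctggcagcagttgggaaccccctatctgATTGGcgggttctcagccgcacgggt
Mcm5, chr8:75109259-75109508, plus strand: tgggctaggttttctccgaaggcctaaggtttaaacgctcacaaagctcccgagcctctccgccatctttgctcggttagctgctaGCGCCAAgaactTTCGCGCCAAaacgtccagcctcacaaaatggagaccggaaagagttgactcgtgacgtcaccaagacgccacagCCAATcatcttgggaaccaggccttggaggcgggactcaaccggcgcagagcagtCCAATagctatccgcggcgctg
Mcm2, chr6:88898781-88899030, minus strand: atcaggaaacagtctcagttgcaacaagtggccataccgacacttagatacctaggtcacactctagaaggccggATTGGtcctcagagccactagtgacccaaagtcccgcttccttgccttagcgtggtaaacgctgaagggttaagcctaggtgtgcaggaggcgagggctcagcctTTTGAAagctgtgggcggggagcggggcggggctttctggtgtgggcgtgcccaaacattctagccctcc
Cenpa, chr5:30666636-30666885, plus strand: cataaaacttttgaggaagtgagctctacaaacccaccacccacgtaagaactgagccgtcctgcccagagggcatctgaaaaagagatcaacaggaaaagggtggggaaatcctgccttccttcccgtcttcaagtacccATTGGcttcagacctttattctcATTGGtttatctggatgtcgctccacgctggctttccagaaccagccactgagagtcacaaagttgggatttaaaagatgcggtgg
Mcm6 holds 4 E2F matches in the printed bases, in 2 pairs that overlap, beside 2 CCAAT boxes. Mcm5 holds 3 E2F matches and Mcm7 holds 1, each with 2 CCAAT boxes. Mcm2 has 0 E2F matches and 1 CHR match, and Cenpa has 2 CCAAT boxes here and 1 CHR match in the 50 bases after its start.

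Over 300 bases, 250 before to 50 after the start, 31 of the 41 genes had an entry in the promoter table. E2F letters occurred in 7 of 13 replication promoters (53.8%), in 3 of 17 mitotic promoters (17.6%) and in 9.69% of the 27025 promoters in the table. CHR letters occurred in 13 of 17 mitotic promoters (76.5%), in 1 of 13 replication promoters and in 18.1% of all promoters. The CCAAT box occurred in 16 of 17 mitotic promoters, 7 of 13 replication promoters and 37.9% of all. The only D-type cyclin in the table, Ccnd3, held none of the 3. A match describes the letters and is not evidence of binding.

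Mafa, the gene that carries the mutation, is first given as a check on the labels. C57 WT mice had 441 ± 87.6 TPM (SD, n = 5) and the Het mice of that background 117 ± 23.2 TPM (n = 6). Mixed mice had 598 ± 143 TPM (WT, n = 5) and 152 ± 37.1 TPM (Het, n = 6). The log2 differences were -1.91 (adjusted p = 1.14e-07) and -1.98 (adjusted p = 3.44e-08). The table does not separate the 2 alleles. Between 14812 and 16133 genes reached 1 TPM in a library, and TPM keeps no read depth. Summed TPM of 8 beta cell markers was 369728 to 448855 in C57 WT and 323089 to 377336 in C57 Het mice. On the Mixed background it was 399989 to 476690 in WT and 248855 to 340559 in Het mice, with no overlap. Of the 8 markers, 1 was called lower in C57 Het mice (12.5%, beside 11.6% of all genes). In Mixed Het mice 6 were called lower (75.0%, beside 13.5% of all genes). The groups follow each other in library number, so library order and group cannot be told apart.

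Among single libraries, 2 stood apart in these genes before any comparison. The library C57 Het 2 was the highest of all 22 in 20 of 22 mitotic genes, against 10.6% of all genes tested, and the highest of its own group in 22 of 22 mitotic and 16 of 16 replication genes. The library Mixed Het 4 was the lowest of all 22 in 17 of 22 mitotic genes, against 1.96% of all genes tested. The summed immune markers were 125 TPM in C57 Het 2, the lowest of the 22 libraries, and 223 TPM in Mixed Het 4, within its group's range. Their summed beta cell markers were 327334 and 340559 TPM, inside and at the top of the ranges of their groups. For the genes described one by one and for the counts by role, values without either library are given where leaving it out changed a call or moved the value by over 1.5 times.

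**Figure D1:**
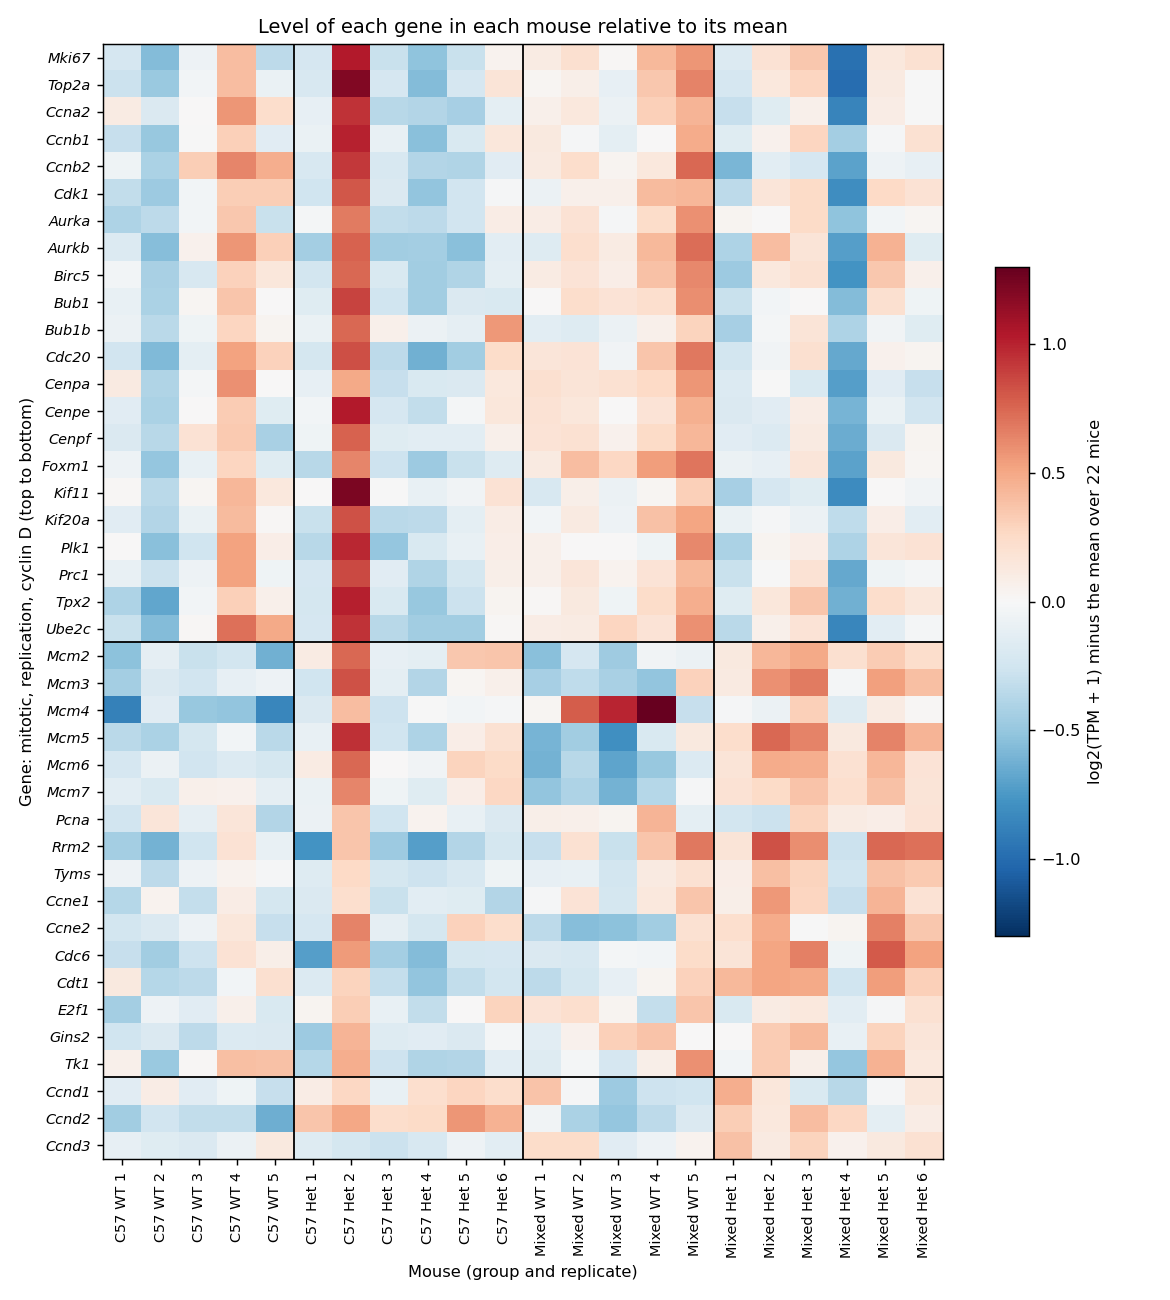
Heat map of the 41 genes (rows: 22 mitotic, 16 replication, 3 cyclin D genes) in the 22 mice (columns, in 4 groups separated by lines). Colour is log2(TPM + 1) minus the gene's mean over all mice, red above and blue below. The column C57 Het 2 is red through the mitotic rows and Mixed Het 4 is blue there, while the Mcm rows other than Mcm4 are red in the Mixed Het columns and blue in most Mixed WT columns.

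In C57 mice, Het islets had more RNA of Ccnd2 and of the helicase genes Mcm2, Mcm6 and Mcm4 than WT islets, and no mitotic gene was called. In all, 4 of 41 genes were called higher and 0 lower, beside 38.0% of all genes tested that were called (26.4% higher and 11.6% lower), so the share called among these genes was below that over all genes. On the Mixed background, 9 of 41 were called higher and 4 lower, beside 44.1% of all genes (30.7% higher and 13.5% lower). There the median difference was 0.37 over the replication genes and -0.31 over the mitotic genes, and 3 of 16 replication genes (Mcm4, E2f1 and Pcna) lay below 0 as did all 22 mitotic genes. In whole islets, more cells of a type and more RNA per cell cannot be told apart.

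**Figure D2:**
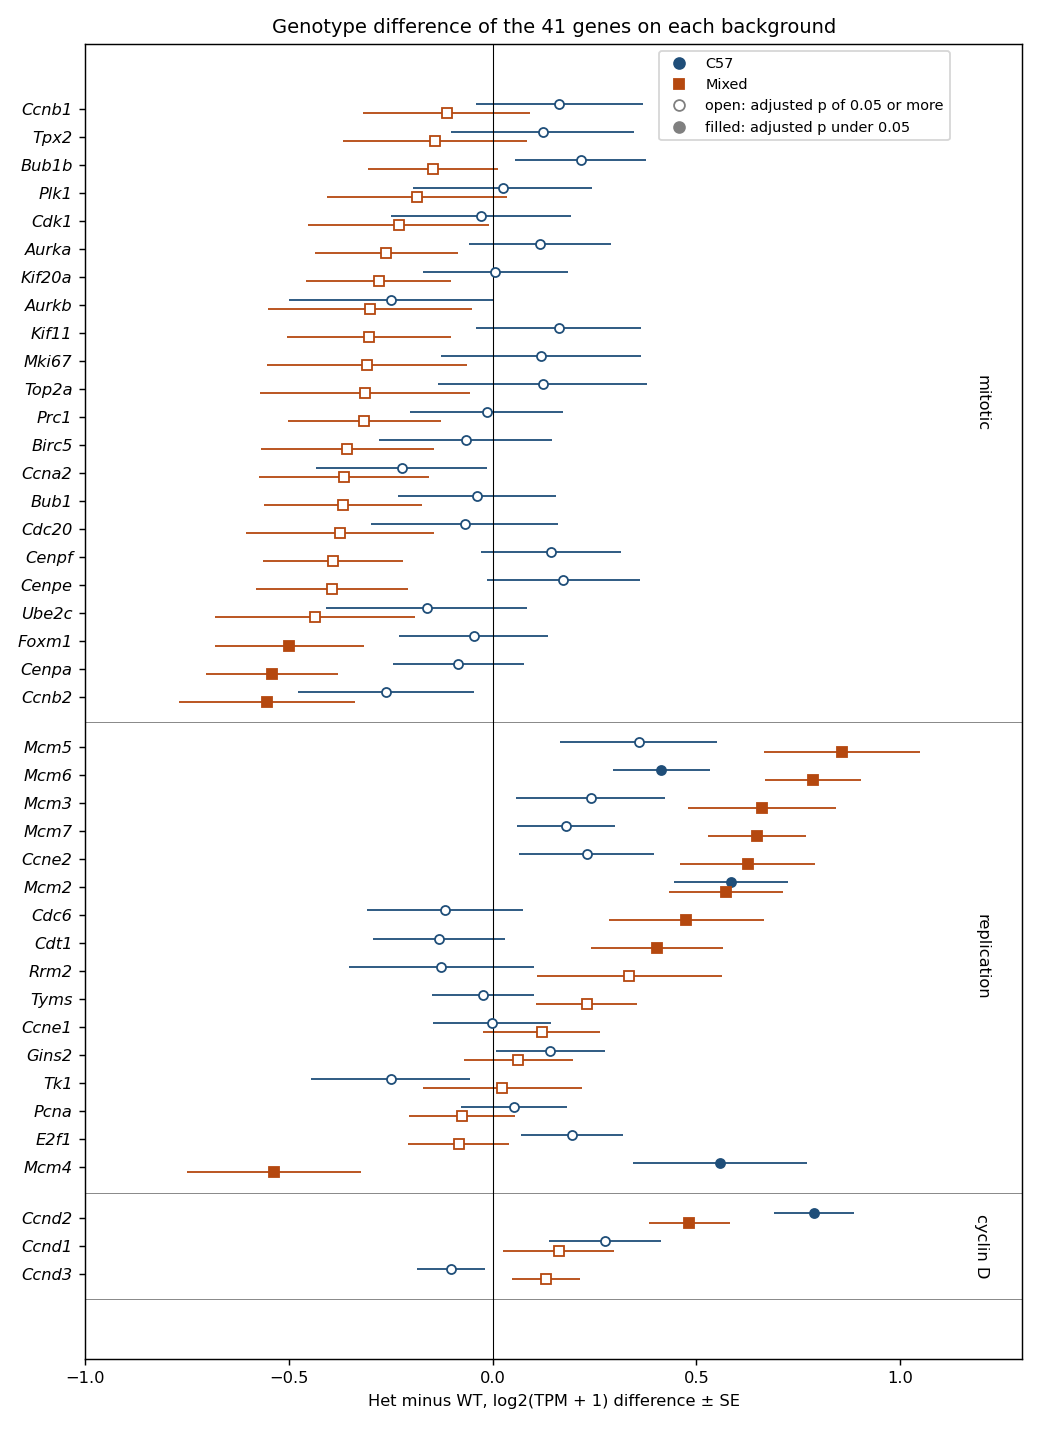
Het minus WT difference in log2(TPM + 1) with its standard error for each of the 41 genes, on the C57 (circles) and Mixed (squares) backgrounds, grouped into mitotic, replication and cyclin D genes. Filled symbols have an adjusted p under 0.05. All 22 mitotic squares lie left of 0, and the squares of Mcm5, Mcm6, Mcm3, Mcm7 and Mcm2 lie right of 0.5.

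The replication genes were led by the MCM helicase. In C57 mice, 3 of 16 replication genes were called higher (18.8%, below the 26.4% of all genes) and 0 lower (beside 11.6%). The median difference was 0.16, where the median over all genes tested was 0.08. The replication median in C57 without C57 Het 2 was 0.055, under the 0.076 over all genes, and 2 genes (Mcm2 and Mcm6) were called. On the Mixed background, 8 of 16 were called higher (Mcm2, Mcm3, Mcm5, Mcm6, Mcm7, Ccne2, Cdc6 and Cdt1) and 1 lower (Mcm4). These were 50.0% and 6.25% of the replication genes, beside 30.7% and 13.5% of all genes. The median was 0.37, where that over all genes was 0.10. Het and WT mice did not overlap in 1 of 16 in C57 (Mcm6, higher, beside 21.0% of all genes and 15.9% in that direction) and in 4 of 16 on the Mixed background (Mcm2, Mcm5, Mcm6 and Mcm7, all higher, beside 23.6% of all genes and 17.9% in that direction). Summed over Mcm2 to Mcm7, the level on C57 was 49.5 to 59.5 TPM in WT and 60.2 to 114 TPM in Het mice. On the Mixed background it was 49.3 to 77.97 TPM in WT and 72.9 to 96.5 TPM in Het mice. The sum includes Mcm4, which was called lower in Mixed Het mice and made up 35.9 of the 77.97 TPM in Mixed WT 4.

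Mcm6 encodes a helicase subunit. It stood at 11.7, 13.0, 11.4, 12.0 and 11.6 TPM in the 5 C57 WT mice and between 13.3 and 23.7 TPM, with a median of 15.7 TPM, in the 6 C57 Het mice. The Mixed WT mice were at 8.63, 10.5, 8.18, 9.50 and 12.0 TPM, and the Mixed Het mice between 15.5 and 19.6 TPM with a median of 17.4 TPM. Every Het mouse was above every WT mouse of its background. The difference was 0.41 (SE 0.12, adjusted p = 0.00886) on C57. It was 0.79 (SE 0.12, adjusted p = 1.84e-05) on the Mixed background. The ratios to the WT mean were 1.38 and 1.79. The difference between the 2 effects, 0.37, was not called (adjusted p = 0.163). Without C57 Het 2 the C57 difference was 0.31 (adjusted p = 0.0208), and the difference between backgrounds was then called.

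Mcm2, another subunit, was at 6.41, 8.87, 7.80, 8.06 and 5.93 TPM in the C57 WT mice, and the C57 Het mice lay between 8.83 and 16.9 TPM (median 11.7 TPM). Mixed WT mice were at 6.34, 8.21, 6.79, 9.43 and 9.18 TPM, and Mixed Het mice between 10.7 and 14.1 TPM (median 12.0 TPM). The C57 groups touched at their ends and the Mixed groups did not overlap. The differences were of like size, 0.58 (SE 0.14, adjusted p = 0.00262) and 0.57 (SE 0.14, adjusted p = 0.00235), and the difference between them was -0.01 (SE 0.20), or 0.09 without C57 Het 2. Without C57 Het 2 the C57 difference was 0.48 (adjusted p = 0.00710).

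Mcm5 and Mcm7 were called on the Mixed background and not in C57. Mcm5 stood at 5.92, 6.70, 5.07, 8.18 and 10.5 TPM in Mixed WT mice and between 10.5 and 16.7 TPM (median 14.3 TPM) in Mixed Het mice, a difference of 0.86 (SE 0.19, adjusted p = 0.00113). In C57 it was at 7.23, 6.91, 7.96, 9.26 and 7.27 TPM in WT and between 6.99 and 19.3 TPM (median 9.52 TPM) in Het mice, where the difference of 0.36 was not called (adjusted p = 0.147) and was 0.18 without C57 Het 2. Mcm7 stood at 8.56, 9.33, 7.90, 9.56 and 12.5 TPM in Mixed WT mice and between 14.3 and 16.8 TPM (median 15.1 TPM) in Mixed Het mice, a difference of 0.65 (SE 0.12, adjusted p = 0.000185). In C57 it was at 11.4, 10.9, 13.3, 13.2 and 11.6 TPM in WT and between 11.2 and 20.2 TPM (median 12.8 TPM) in Het mice, with a difference of 0.18 (adjusted p = 0.250), or 0.076 without C57 Het 2. The difference between backgrounds was not called for Mcm5 (0.50, adjusted p = 0.250) or Mcm7 (0.47, adjusted p = 0.0901). Without C57 Het 2 it was called for Mcm6, Mcm7 and Cdc6. For Mcm7, 4 of the 5 Mixed WT mice lay below every C57 WT mouse. The difference between backgrounds among WT mice was -0.32 and was not called (adjusted p = 0.106). Without C57 Het 2 it was called lower in Mixed WT mice (-0.32, adjusted p = 0.0476). The gene overlaps Cops6 and Ap4m1 on the opposite strand in GENCODE M21, at 42.0 and 20.0 TPM against 13.0 TPM for Mcm7 itself, and whether counting used strand is not given in the sources used here.

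**Figure D3:**
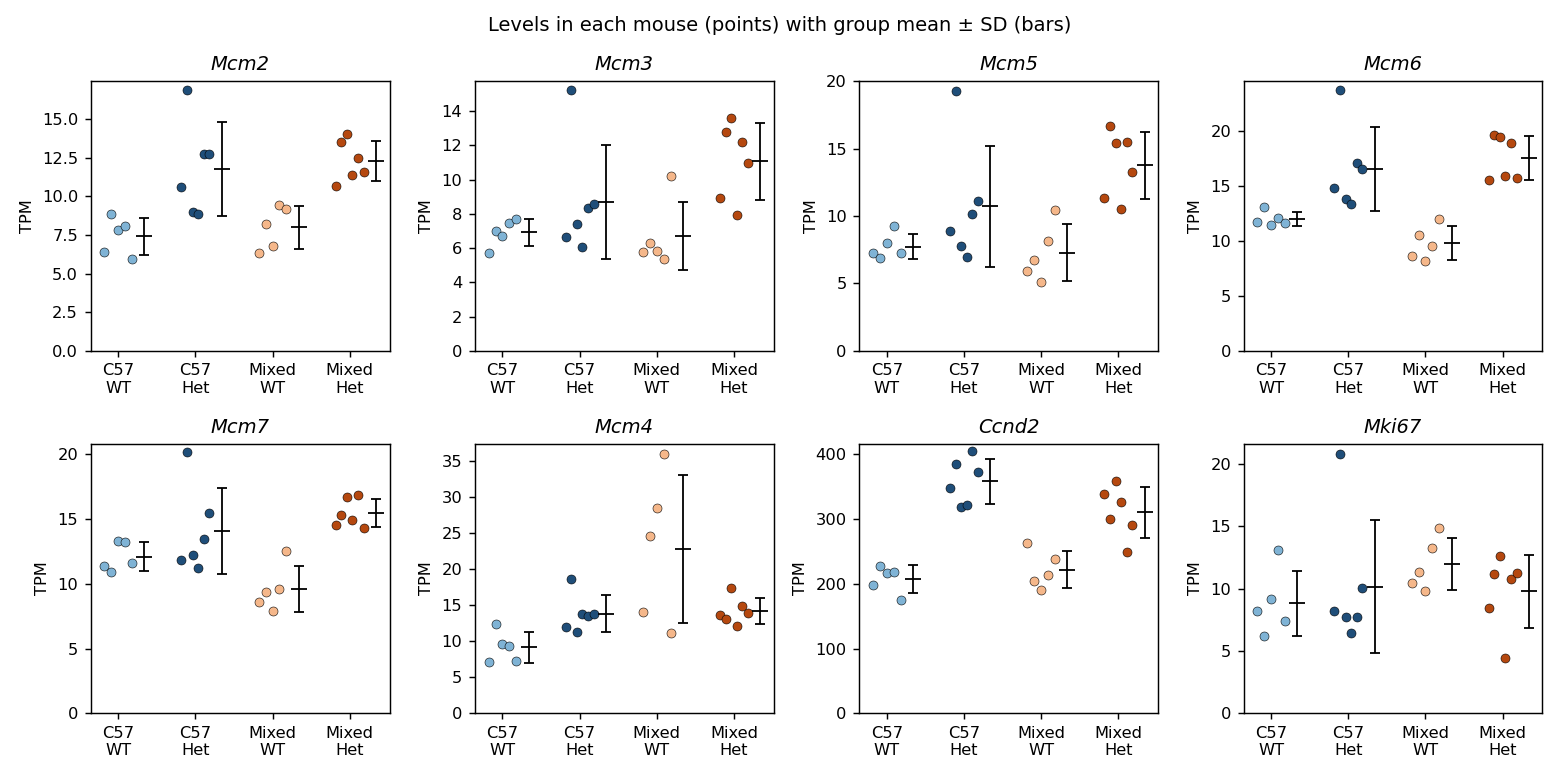
TPM in each mouse (points) with the group mean ± SD (bars at the right of each group) for Mcm2, Mcm3, Mcm5, Mcm6, Mcm7, Mcm4, Ccnd2 and Mki67. In Mcm2, Mcm5, Mcm6 and Mcm7 all Mixed Het mice lie above all Mixed WT mice. Mcm4 has 3 high Mixed WT mice at 24.6, 28.5 and 35.9 TPM, and 1 C57 Het mouse is high in Mki67 at 20.8 TPM.

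Mcm3, the remaining subunit that followed this order, had means of 6.70 ± 2.0 TPM in WT and 11.1 ± 2.24 TPM in Het mice of the Mixed background, a difference of 0.66 (SE 0.18, adjusted p = 0.00567). Mixed WT 5, at 10.2 TPM, lay inside the Het range. In C57 the difference was 0.24 and was not called (adjusted p = 0.312), and without C57 Het 2 it was 0.080.

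Mcm4 went against the other subunits on the Mixed background. It stood at 14.1, 24.6, 28.5, 35.9 and 11.1 TPM in the Mixed WT mice, replicates 1 to 5 in that order, and between 12.2 and 17.3 TPM (median 13.8 TPM) in Mixed Het mice. In C57 it was at 7.09, 12.4, 9.56, 9.39 and 7.26 TPM in WT and between 11.3 and 18.6 TPM (median 13.6 TPM) in Het mice. The spread in Mixed WT mice, 22.8 ± 10.3 TPM, was made by replicates 2, 3 and 4, while the other 2 mice lay with or below the Het mice. The genotype difference was 0.56 (SE 0.21, adjusted p = 0.0435) on C57. It was -0.54 (SE 0.21, adjusted p = 0.0456) on the Mixed background. Mcm4 was the only one of the 41 genes whose genotype difference was called as differing between backgrounds (-1.09, SE 0.30, adjusted p = 0.0317, beside 7.36% of all genes called and 2.74% lower). Among WT mice it was also the only one called between Mixed and C57 (1.14, SE 0.22, adjusted p = 0.00189, beside 11.3% of all genes called and 6.3% higher).

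Without Mixed WT 2, 3 and 4 the Mixed genotype difference of Mcm4 was 0.16 (adjusted p = 0.560), on the other side of 0, and the differences between genotype effects (-0.39) and between WT mice (0.44) were no longer called. That choice was made after the values were seen and leaves 2 Mixed WT mice. Leaving out 1 of these libraries at a time gave a Mixed genotype difference of -0.48, -0.43 and -0.35, none called. The call was lost in 20 of 34 alternatives, among them those without any 1 of 14 libraries (C57 WT 3 or 4, C57 Het 1, 4, 5 or 6, Mixed WT 2, 3 or 4, Mixed Het 1, 2, 4, 5 or 6). The C57 call was lost in 15 of 34, among them without C57 WT 1, 3, 4 or 5, C57 Het 2, 4, 5 or 6 or Mixed Het 6 (0.47 to 0.58), and the call between genotype effects in 10 of 33. Those 3 libraries were the 3 highest of all 22 in 2.79% of genes tested (468), Mcm4 being the only one of the 41. They also had the 3 highest sums of 9 ductal markers, 1514, 1902 and 1766 TPM, where Mixed WT 1 and 5 had 1203 and 719 TPM and Mixed Het mice 913 to 1408 TPM, and the part of this in the Mcm4 values was not tested. Of the 2 protein-coding genes next to Mcm4 on chromosome 16, Prkdc ranged from 3.49 to 6.96 TPM over the 22 mice and was called in none of the comparisons. Ube2v2, on the other side, ranged from 3.08 to 5.74 TPM and was called in 1, higher in Mixed Het than in Mixed WT mice (0.26, adjusted p = 0.0479).

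Licensing and nucleotide genes followed in part. Cdc6 and Cdt1 load the helicase, and both were low. Cdc6 was at 1.25, 1.22, 1.52, 1.49 and 2.02 TPM in Mixed WT and between 1.46 and 3.44 TPM (median 2.67 TPM) in Mixed Het mice, a difference of 0.48 (adjusted p = 0.0480). Cdt1 was at 2.53, 2.82, 3.14, 3.56 and 4.48 TPM in Mixed WT and between 2.71 and 5.52 TPM (median 5.12 TPM) in Mixed Het mice, a difference of 0.40 (adjusted p = 0.0475). Both calls sat at the threshold: over the alternatives the adjusted p ranged from 0.00404 to 0.313 for Cdc6, whose call was lost in 20 of 33, and from 0.00301 to 0.328 for Cdt1, lost in 22 of 33. Leaving out any 1 of 13 libraries ended the Cdc6 call (C57 WT 1 or 3, C57 Het 3, 5 or 6, Mixed WT 1 to 4, Mixed Het 2, 3, 5 or 6), and any 1 of 14 the Cdt1 call (C57 WT 4, C57 Het 1, 3, 5 or 6, Mixed WT 1 to 4, Mixed Het 1, 2, 3, 5 or 6). Without Mixed Het 4 both were called, at 0.57 and 0.52. Ccne2, a cyclin E of S phase entry, had a difference of 0.63 (SE 0.17, adjusted p = 0.00427), with means of 3.43 ± 1.07 and 5.78 ± 1.22 TPM. The Ccne2 call was lost in 2 of 33 alternatives, with an adjusted p of up to 0.263. This gene overlaps Ints8 on the opposite strand, at 11.1 TPM against 4.65 TPM.

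In C57, Cdc6 was at 1.08, 0.867, 1.12, 1.91 and 1.69 TPM in WT and between 0.562 and 2.75 TPM (median 1.03 TPM) in Het mice, and Cdt1 at 3.86, 2.46, 2.53, 3.36 and 4.17 TPM in WT and between 2.12 and 4.46 TPM (median 2.68 TPM) in Het mice. The highest Het value of both was that of C57 Het 2, and neither gene was called (-0.12 and -0.13, or -0.28 and -0.23 without that library). Rrm2, the regulated subunit of ribonucleotide reductase, was at 3.65, 3.13, 4.27, 6.20 and 4.90 TPM in C57 WT, between 2.69 and 7.09 TPM (median 3.69 TPM) in C57 Het, at 4.11, 6.22, 4.18, 7.11 and 9.12 TPM in Mixed WT and between 4.18 and 10.2 TPM (median 8.99 TPM) in Mixed Het mice. Its genotype difference was called on neither background (-0.13 and 0.34, adjusted p = 0.695 and 0.241). It was -0.27 in C57 without C57 Het 2 and 0.49 on the Mixed background without Mixed Het 4, and was called on the Mixed background without both (0.49).

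The other replication genes had smaller differences. Pcna, the sliding clamp, was the most abundant replication gene in TPM, which is per length, at 59.7 ± 10.1 TPM in WT and 61.9 ± 10.3 TPM in Het mice on the C57 background and at 67.9 ± 10.4 and 64.5 ± 10.2 TPM on the Mixed background, and was called in no comparison. A pseudogene row, Pcna-ps2, held 5.61 TPM on average, so reads of the copies may be shared. E2f1, Ccne1, Tyms, Gins2 and Tk1 were called in neither genotype comparison, with differences from -0.25 (Tk1, -0.38 without C57 Het 2) to 0.19 (E2f1) in C57 and from -0.08 (E2f1) to 0.23 (Tyms) on the Mixed background. Tyms, which makes thymidylate, was called there without Mixed Het 4 (0.32, adjusted p = 0.0259). Gins2 overlaps Gse1 on the opposite strand, at 56.7 TPM against 2.39 TPM. Among WT mice, Gins2 was the only one of the 41 genes in which the 2 backgrounds did not overlap (higher in Mixed, beside 6.12% of all genes and 2.91% higher), and it was not called (0.35, adjusted p = 0.109).

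Between the Het groups, 4 of 41 genes were called higher on the Mixed than on the C57 background and 0 lower, beside 20.5% of all genes (13.3% higher and 7.13% lower): Ccnd3, Cdc6, Rrm2 and Cdt1. The differences of Rrm2 (0.84, SE 0.22, adjusted p = 0.00887), Cdc6 (0.70, SE 0.18, adjusted p = 0.00877) and Cdt1 (0.55, SE 0.15, adjusted p = 0.0145) rested on Het mice of 2 backgrounds whose ranges overlapped. Of the 16 replication genes, 15 had a difference above 0. Without C57 Het 2, 9 of 41 were called, with Mcm3, Mcm5, Tyms, Ccne1 and Gins2 added, beside 3084 of 16708 genes called. Without Mixed Het 4 the 4 stayed called, and Tyms (0.41, adjusted p = 0.0103) and Ccne1 (0.47, adjusted p = 0.0136) were added, beside 3347 of 16674 genes. The comparisons between backgrounds use the same mice as the genotype comparisons.

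The mitotic genes did not follow the helicase. In C57 mice 0 of 22 were called by limma, beside 38.0% of all genes, with 0 also at an unadjusted p under 0.05. Of the 22, 11 lay above and 11 below 0, with a median of -0.00. Among Mixed mice 0 were called higher and 3 lower (13.6%, near the 13.5% of all genes called lower), all 22 lay below 0, with a median of -0.31 and a range from -0.55 to -0.11. Over all genes tested there, 39.3% lay below 0. Het and WT mice did not overlap in 2 of 22, Ccnb2 and Cenpa, both lower, beside 5.76% of all genes. Differences between backgrounds in the genotype effect were all below 0 (median -0.30), and limma called 0 of them, with 2 at an unadjusted p under 0.05. That median was -0.12 without C57 Het 2, where 20 of 22 lay below 0, and without Mixed Het 4 it was -0.23 with 21 of 22 below 0.

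Mki67, the proliferation marker Ki-67, stood at 8.17, 6.21, 9.17, 13.1 and 7.44 TPM in C57 WT mice and between 6.42 and 20.8 TPM (median 7.99 TPM) in C57 Het mice. On the Mixed background it was at 10.5, 11.3, 9.82, 13.3 and 14.9 TPM in WT and between 4.46 and 12.6 TPM (median 10.96 TPM) in Het mice. The groups overlapped on both backgrounds. The highest value was that of C57 Het 2 and the lowest that of Mixed Het 4. The differences were 0.12 (SE 0.25, adjusted p = 0.737) and -0.31 (SE 0.25, adjusted p = 0.323), and without C57 Het 2 the first was -0.10 and without Mixed Het 4 the second was -0.12.

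The 3 mitotic genes called lower on the Mixed background have roles at the centromere, in transcription and in entry into mitosis. Cenpa, the centromeric histone H3, fell from 3.77 ± 0.60 TPM (range 3.38 to 4.82 TPM) in WT to 2.29 ± 0.51 TPM (1.37 to 2.88 TPM) in Het mice, a difference of -0.54 (SE 0.16, adjusted p = 0.00955). Ccnb2, a mitotic cyclin, fell from 9.46 ± 2.29 to 6.11 ± 1.25 TPM (-0.55, SE 0.22, adjusted p = 0.0418). Foxm1, the factor that drives the late wave, fell from 5.402 ± 1.0 to 3.57 ± 0.87 TPM (-0.50, SE 0.18, adjusted p = 0.0310). The Cenpa call held in all 33 alternatives. The call on Foxm1 was lost in 8 of 33, among them without Mixed WT 4 (-0.46), Mixed WT 5 (-0.43) or Mixed Het 4 (-0.38). That on Ccnb2 was lost in 11 of 34, among them without any of 6 libraries (Mixed WT 2, 4 and 5, Mixed Het 1, 3 and 4), with differences from -0.58 to -0.43. Both were also lost with no filter, with either marker score, with sample weights and without Mixed WT 2, 3 and 4.

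The remaining 19 mitotic genes were called in no genotype comparison with all 22 libraries. Without C57 Het 2, 6 of 22 were called lower on the Mixed background, with Cenpf, Bub1 and Cenpe added. That library is in neither Mixed group: the differences were the same as with all libraries, and the estimate of spread shared by the 4 groups changed. Over all genes, 2252 of 16708 were called lower in that setting. Median-of-ratios scaling and the fit on the Mixed libraries alone each called 5, with Cenpf and Cenpe added. Over all 16756 genes, they called 3745 and 2211 lower. These 19 genes include the cyclins and kinases Ccna2, Ccnb1, Cdk1, Plk1, Aurka, Aurkb, Bub1 and Bub1b. Among them are also the motors Cenpe, Kif11 and Kif20a, and Top2a, the topoisomerase that untangles sister chromatids. The next lowest adjusted p values on the Mixed background were those of Cenpf (-0.39, adjusted p = 0.0681) and Cenpe (-0.39, adjusted p = 0.0924), both kinetochore proteins. Ccna2 overlaps Exosc9, Cdc20 overlaps Elovl1 and Kif20a overlaps Cdc23 on the opposite strand, each more abundant than the mitotic gene, so reads of the pairs may be shared.

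Summed over the 22 mitotic genes, the C57 WT mice ran from 73.0 to 156 TPM with a median of 106 TPM, and the C57 Het mice from 75.8 to 222 TPM with a median of 89.0 TPM. The Mixed WT mice ran from 110 to 170 TPM with a median of 121 TPM, and the Mixed Het mice from 58.8 to 122 TPM with a median of 110 TPM. The top of the C57 Het range was C57 Het 2, and the bottom of the Mixed Het range was Mixed Het 4. In C57 without C57 Het 2, 20 of 22 mitotic genes lay below 0, with a median of -0.18. There 2 were called lower, Ccna2 and Ccnb2, beside 1681 of 16708 genes. Leaving out C57 WT 4 in place of C57 Het 2 gave 4 of 22 below 0 and a median of 0.12, with 0 called. Without Mixed Het 4 the Mixed median was -0.21 and all 22 stayed below 0. Then 1 gene, Cenpa, was called lower, beside 2144 of 16674 genes. Within groups the mitotic genes moved as a block by mouse: C57 WT 4 was the highest of its group in 21 of 22, C57 WT 2 the lowest in 20 of 22, and Mixed WT 5 the highest in 22 of 22. Between backgrounds among WT mice 21 of 22 lay above 0 (median 0.22) and limma called 0, with 1 at an unadjusted p under 0.05. That median was 0.13 without C57 WT 2 (18 of 22 above 0) and 0.35 without C57 WT 4. Foxm1 was called higher without C57 Het 2, at an unchanged difference of 0.51. Among Het mice limma also called 0, with 2 at an unadjusted p under 0.05.

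**Figure D4:**
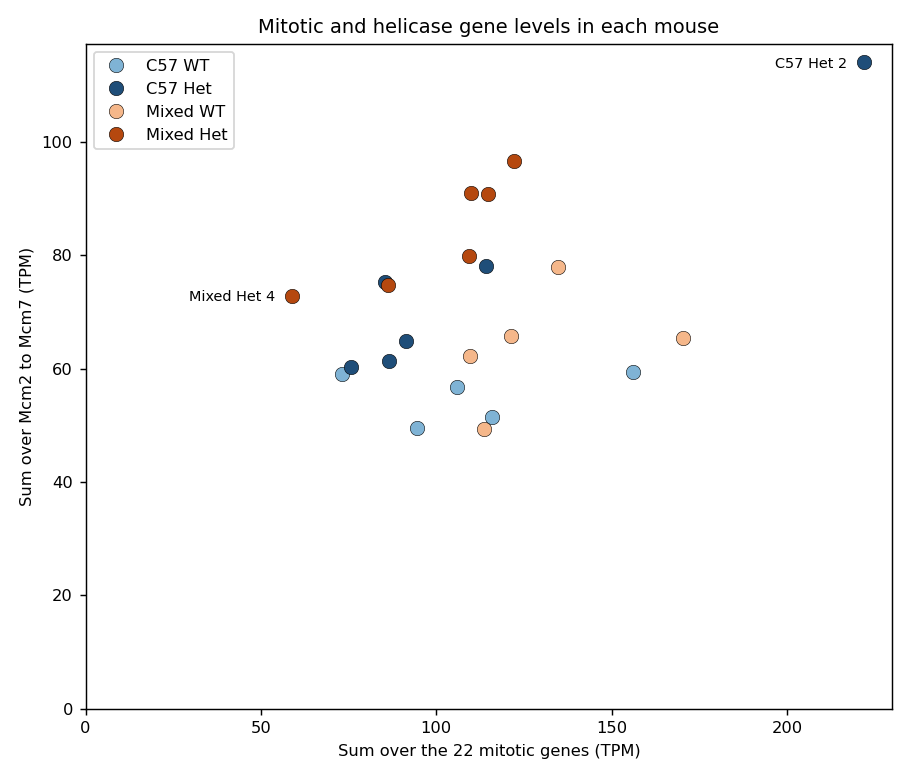
Summed TPM of the 22 mitotic genes (x axis) against summed TPM of Mcm2 to Mcm7 (y axis), 1 point per mouse, coloured by group. C57 Het 2 lies alone at 222 and 114 TPM. The Mixed Het mice lie at 72.9 to 96.5 TPM of helicase RNA, with mitotic sums of 58.8 to 122 TPM that reach lower than those of the Mixed WT mice.

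Ccnd2 and Ccnd1 were the 2 most abundant of the 41 genes in TPM, ahead of Pcna. Ccnd2 stood at 198, 228, 217, 217 and 174 TPM in C57 WT mice and between 319 and 404 TPM (median 360 TPM) in C57 Het mice, with no overlap. On the Mixed background it was at 262, 204, 191, 214 and 238 TPM in WT and between 248 and 359 TPM (median 313 TPM) in Het mice, where Het 5 lay below WT 1. It rose by 0.79 (SE 0.10, adjusted p = 4.52e-06) on C57, to 1.73 times the WT mean. It rose by 0.48 (SE 0.10, adjusted p = 0.000507) on Mixed, to 1.40 times the WT mean. The difference between backgrounds, -0.31, was not called (adjusted p = 0.170).

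Ccnd1 was at 88.2, 105, 88.5, 94.3 and 79.4 TPM in C57 WT and between 91.6 and 119 TPM (median 114 TPM) in C57 Het mice, a difference of 0.28 that was not called (adjusted p = 0.116) but was in the fit on the C57 libraries alone (adjusted p = 0.0260). On the Mixed background it was at 127, 97.0, 70.1, 81.2 and 81.5 TPM in WT and between 76.0 and 136 TPM (median 103 TPM) in Het mice (0.16, adjusted p = 0.353). Ccnd3 was at 10.02, 9.62, 9.42, 10.2 and 12.0 TPM in C57 WT, between 8.75 and 10.3 TPM (median 9.40 TPM) in C57 Het, at 12.9, 13.0, 9.71, 10.3 and 11.2 TPM in Mixed WT and between 11.3 and 14.4 TPM (median 12.2 TPM) in Mixed Het mice. Its genotype difference was called on neither background (-0.10 and 0.13), though under quantile normalization it was called lower in C57 Het mice (-0.21). Every Mixed Het mouse was above every C57 Het mouse, a difference of 0.37 (SE 0.08, adjusted p = 0.00215), beside 9.85% of all genes whose Het groups did not overlap and 6.56% higher. Ccnd3 overlaps Bysl on the opposite strand, at 10.7 TPM against 10.9 TPM.

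Other genes of these pathways were counted in 3 lists. Of 31 other replication genes tested, 7 were called higher and 0 lower in C57 and 17 higher and 0 lower on the Mixed background, with medians of 0.16 and 0.34. The share called higher was 22.6% in C57, below the 26.4% of all genes, and 54.8% on the Mixed background, beside 30.7% of all genes. The C57 median was 0.056 without C57 Het 2. On the Mixed background the 17 became 12 without Mixed WT 1 or Mixed WT 3, beside 5157 of 16684 and 4411 of 16685 genes called higher. They became 13 without Mixed Het 5 (beside 4700 of 16641 genes) and 19, with 1 lower, without C57 Het 2 (beside 5110 of 16708 genes higher). Orc6, a subunit of the origin recognition complex, rose from 31.0 ± 2.04 to 51.1 ± 3.15 TPM in C57 (0.70, adjusted p = 1.59e-05) and from 37.9 ± 5.35 to 60.4 ± 9.77 TPM on the Mixed background (0.65, adjusted p = 1.80e-05). Gins4, a partner of the helicase, rose by 0.40 (adjusted p = 0.00127) and 0.69 (adjusted p = 2.45e-06). Rrm1, the large subunit of ribonucleotide reductase, rose by 0.48 in C57 (adjusted p = 0.00887).

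Of 35 other mitotic genes tested, 1 was called higher and 1 lower in C57, and 0 higher and 4 lower on the Mixed background, with medians of 0.01 and -0.20. The 4 called lower were 11.4% of the list, beside 13.5% of all genes. The C57 median was -0.12 without C57 Het 2, and the Mixed count was 2 without Mixed WT 5. Pttg1, securin, fell from 11.4 ± 2.0 to 3.94 ± 1.31 TPM on the Mixed background (-1.35, adjusted p = 1.58e-07). Kif23, a cytokinesis motor, and Cdkn3, a phosphatase, fell by 0.50 (adjusted p = 0.0138) and 0.41 (adjusted p = 0.0189) there, the latter call being lost without Mixed WT 5. In C57 Mybl2, a component of the MMB complex, fell by 0.31 (adjusted p = 0.0331), and Spc25, a kinetochore gene at 107 TPM in WT, rose by 0.56 (adjusted p = 0.0360), while Racgap1 did not pass (0.28, adjusted p = 0.0715). The Mybl2 call was lost without C57 WT 1 or 4 or C57 Het 1, 3 or 6, and the Spc25 call without C57 WT 1 or 5 or C57 Het 2, 3, 5 or 6.

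Of 23 G1 kinases, pocket proteins and E2F genes, 8 were called higher and 2 lower in C57 and 5 higher and 2 lower on the Mixed background. The shares were 34.8% higher and 8.7% lower in C57, beside 26.4% and 11.6% of all genes, and 21.7% higher and 8.7% lower on the Mixed background, below the 30.7% and 13.5% of all genes. Cdk4, the kinase partner of the D-type cyclins, fell from 109 ± 13.7 to 77.2 ± 2.7 TPM in C57 (-0.49, adjusted p = 1.56e-05) and from 106 ± 4.0 to 77.7 ± 4.66 TPM on the Mixed background (-0.45, adjusted p = 1.77e-05). Its alternative partner Cdk6 rose from 0.874 ± 0.134 to 2.25 ± 0.465 TPM on the Mixed background (0.78, adjusted p = 6.45e-06). Cdc25a, a phosphatase that activates CDK2, rose by 0.50 in C57 (adjusted p = 0.000905) and 0.53 on the Mixed background (adjusted p = 0.000381). Tfdp2, a dimer partner of E2F, rose by 0.52 in C57 (adjusted p = 0.000278).

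Markers of other cells moved with some of these groups. Summed TPM of 12 immune markers was 140 to 211 in C57 WT, 125 to 165 in C57 Het, 132 to 185 in Mixed WT and 180 to 366 in Mixed Het mice, with Cd3e and Itgam under 1 TPM in every library. Of the 9 immune markers tested, 6 were called higher (66.7%, beside 30.7% of all genes) and 1 lower (11.1%, beside 13.5%) in Mixed Het than in Mixed WT mice. Sums of 9 mesenchymal markers were 138 to 210 in Mixed WT and 132 to 561 TPM in Mixed Het mice. Sums of 11 acinar markers were 226 to 419 in C57 WT, 289 to 1746 in C57 Het, 190 to 914 in Mixed WT and 683 to 1283 TPM in Mixed Het mice. All 7 alpha cell markers were called higher in Het mice on both backgrounds, beside 26.4% of all genes in C57 and 30.7% on Mixed. So were 4 of 6 delta and PP cell markers in C57 (66.7%) and 5 of 6 on Mixed (83.3%). Of 8 endothelial markers, 5 were called lower in C57 Het mice (62.5%, beside 11.6% of all genes) and 0 on the Mixed background. Of 5 Schwann cell markers, 3 were called higher in Mixed Het mice (60.0%, beside 30.7% of all genes) and 0 in C57. With the immune score as a covariate, Mcm2, Mcm3, Mcm5, Mcm6 and Mcm7 were still called higher on the Mixed background and Cenpa lower, and Ccne2, Cdc6, Cdt1, Foxm1, Ccnb2 and Mcm4 were not. With the acinar score, Mcm2 and Ccnd2 were the only genes of the 41 called in C57. Over all genes, the 7395 Mixed calls became 5407 with the immune score. The 6362 C57 calls became 3445 with the acinar score. Immune markers differed by genotype on the Mixed background and acinar markers in C57, so these fits cannot tell such RNA apart from genotype. The part of beta, alpha, delta and PP, ductal, mesenchymal, endothelial and Schwann cell RNA in these results was not tested.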

How the data were processed

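The authors deposited one table of TPM for 57010 genes and 22 libraries, per the file headers; each column sums to 1000000, so read depth is unknown and no counting interval was computed. Per the submitters' processing notes, STAR 2.7.10b, MultiQC 1.7 and mm39 were used. The counting tool, annotation and strand setting are not given in the sources used here. Poly(A) selection is described per the labels' protocols. Columns were matched to samples by library name, and replicate numbers follow accession order and only name a mouse.

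Values were tested as log2(TPM + 1) with limma 3.58.1 in R 4.3.3 (trended variance, 4 group means in one model of 22 samples) over the 16756 genes that reached 1 TPM in 5 or more libraries, with Benjamini-Hochberg adjustment over all of them. The groups share 1 estimate of the spread per gene, so leaving out a library can change calls in comparisons without it, at the same difference. The script was tested on simulated data. The 41 genes and all lists were chosen with earlier results of these data known. Values by mouse for the WT groups of 5, and the lowest, median and highest for the Het groups of 6, are given for Mki67, the D-type cyclins, each gene called in the interaction and the 5 with the lowest adjusted p under 0.05 in each genotype and background comparison. Up to 3 genes per related list and genotype comparison were named by adjusted p; a gene that this rule picks is not reported here. Genes named beyond these were chosen after their values were seen. Promoters came from a RefSeq table on GRCm38.p6, which holds 31 of the 41 genes. Overlaps between genes came from GENCODE M21 by name. Alternatives covered the pseudocount, filters, scaling, sample choice, marker covariates, variance settings and leaving out libraries.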

Additional observations from a re-analysis of the deposited data

Results flagged for a closer look

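The library C57 Het 2 stood far above the other 5 mice of its group in 6 of the 12 genes given mouse by mouse: Mki67 (20.8 TPM), Mcm4 (18.65 TPM), Mcm5 (19.31 TPM), Mcm6 (23.74 TPM), Cdc6 (2.754 TPM) and Cdt1 (4.457 TPM). The library Mixed Het 4 stood far below its group in Cdt1 (2.715 TPM). Over all 41 genes and 4 groups, 35 of 164 gene and group pairs had such a gap, 28 of them in C57 Het. For a single pair chance gives about 1 in 20. Many of the genes moved together by mouse, so the pairs are not independent and their count cannot be tested against that rate. The labels of C57 Het 2 name no difference from the other mice of the group.

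The genotype difference of Mcm4 differed between the C57 and Mixed backgrounds by -1.094 in the test of the interaction, and 3 of the 5 Mixed WT libraries carried it.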

How the results depend on the processing

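No paired analysis was possible because the labels give no replicate numbers shared between groups. Of 27 gene results, 8 kept their direction and side of the threshold in every alternative, 15 lost a call in at least 1 with no change of sign, 3 changed sign in at least 1 (Mcm4 among them also lost its call elsewhere), and 1, Ccnd1 in C57, gained a call (adjusted p = 0.0260 in the samples of the contrast alone). Those 3 were Mcm4 on the Mixed background (0.16) and Ccnd1 on the Mixed background (-0.022), both without Mixed WT 2, 3 and 4, and Mki67 in C57 (-0.10 both without C57 Het 2 alone and without C57 Het 2 and Mixed Het 4). Leaving out these sets of libraries was chosen after seeing the data, and the causes of the changes were not tested.

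Of the 41 genes, the 4 called by genotype in C57 became 2 with the acinar score. The 13 called on the Mixed background became 8 with no filter, 8 with a mean TPM of at least 5 (21 genes tested), 8 with the acinar score, 7 with the immune score and 4 without Mixed WT 2, 3 and 4. The 1 called in the interaction became 0 with no filter, 0 with the immune score, 0 without Mixed WT 2, 3 and 4, 2 with sample weights and 5 without C57 Het 2 and Mixed Het 4. The 1 called between WT mice became 0, 2 and 2 in the last 3 of these settings. The 4 called between Het mice became 2 with a mean TPM of at least 5, 1 with the immune score, and 10 both with sample weights and without C57 Het 2 and Mixed Het 4. Leaving out 1 library gave 3 to 5, 8 to 16, 0 to 4, 1 to 3 and 4 to 9 calls in the 5 comparisons in that order. The 8 came without Mixed WT 4, and the 4, 3 and 9 without C57 Het 2. The interaction had 0 without C57 WT 1 or 5, Mixed WT 2, 3 or 4, or Mixed Het 2, and 2 without Mixed WT 5, as had the WT comparison.

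Over all genes, the 6362 calls by genotype in C57 became 3445 with the acinar and 3830 with the immune score, and the 7395 on the Mixed background 3842 without Mixed WT 2, 3 and 4. The 1233 interaction calls became 714 with no filter, 2628 with sample weights, 9 with the immune score, 459 without Mixed WT 2, 3 and 4, 821 without Mixed Het 2 and 762 without Mixed Het 5. The 1892 between WT mice became 1251 with a mean TPM of at least 5, 831 in the samples of the contrast alone and 715 without Mixed WT 2, 3 and 4. The 3428 between Het mice became 2223 with a mean TPM of at least 5, 437 with the immune score and 6572 with sample weights. Median-of-ratios scaling moved the median of all genes from 0.08 to 0.01 in C57 and from 0.10 to -0.01 on the Mixed background, and the calls to 3521 higher and 3063 lower, and 3582 higher and 3745 lower. Under it all 22 mitotic genes stayed below 0 on the Mixed background (median -0.43) and the replication median was 0.26.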
